A study of Mus musculus with 2 samples.

Results

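Cells with many Osr1 transcripts were compared with cells with few in the posterior part of the mouse second heart field at E10.5, where E stands for embryonic day. The cells were chosen by their own measured Osr1 counts. Of the 560 posterior cells at this stage, 135 cells had 3 or more Osr1 UMIs and are called Osr1-high, and 273 cells had exactly 1 and are called Osr1-low. A UMI is a molecular tag that lets each captured transcript be counted once. The remaining 152 posterior cells had exactly 2 Osr1 UMIs and entered neither class. The 408 compared cells were taken from 967 cells of the stage and 1500 cells of the whole study.

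The study sequenced single cells of dissected wild-type second heart field at E9.5 and E10.5, and the cells carry the label Osr1+ in the sources used here. All groups therefore share the wild-type genotype and the presence of Osr1. The suffix of each cell barcode gives the dissected position, and the posterior and middle cells of E10.5 and the posterior cells of E9.5 are used below. There was 1 deposited sample per stage, the number of embryos behind it is not given in the sources used here, and no agent was applied.

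Osr1 is a zinc-finger transcription factor of embryonic mesoderm, known from the kidney and from the dorsal mesocardium that septates the atria. The posterior second heart field is splanchnic mesoderm that lies between the foregut and the venous pole of the heart. It receives Hedgehog ligand from the foregut endoderm, and its descendants contribute to the atrial septum and to mesenchyme of the lung.

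The Osr1 counts themselves fixed the classes and are given as a description. Cells with 3 Osr1 UMIs numbered 73, cells with 4 numbered 31 and cells with 5 to 10 numbered another 31. Osr1 made up 573 CPM (counts scaled to a class total of 1000000) of the summed counts of Osr1-high cells and 166 CPM of those of Osr1-low cells. Cells just below the threshold, with 2 UMIs, held 335 CPM of Osr1, and cells just above it, with 3 UMIs, held 473 CPM. The gene lies on chromosome 12 of mm10, from position 9570116 to 9581500 on the plus strand.

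Depth was close in both classes. Osr1-high cells had a median of 5693 UMIs without Osr1 (range 4129 to 25219) and Osr1-low cells a median of 5343 (range 4091 to 20431). The medians of detected genes were 2277 and 2151. Matching each Osr1-high cell to the Osr1-low cell nearest in total UMIs gave 132 pairs with medians of 5656.5 and 5649 UMIs. A single barcode was shared between libraries, by a posterior cell with 4 Osr1 UMIs and a middle cell, and leaving that posterior cell out, a choice made after seeing the data, changed the direction of none of the 30 genes named below by rank.

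**Figure D1:**
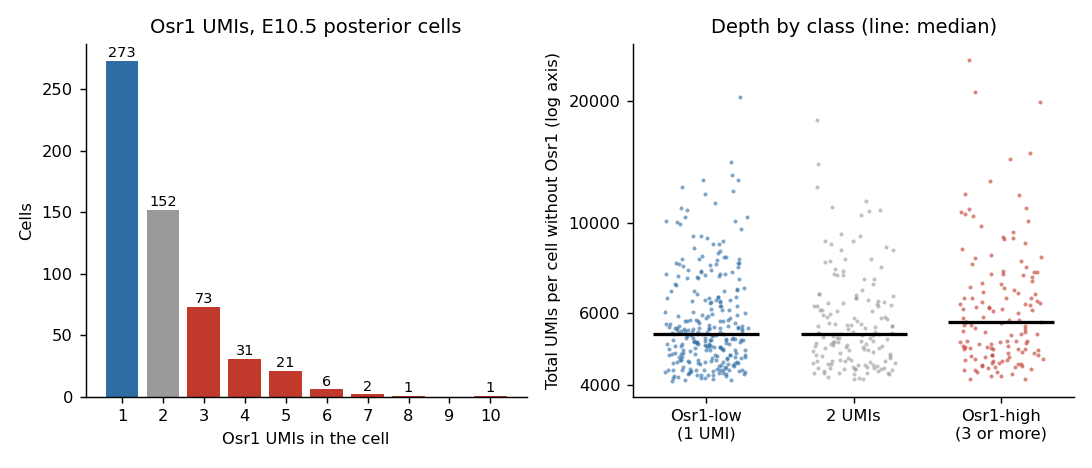
Left: number of E10.5 posterior cells (y axis) by Osr1 UMIs (x axis), with Osr1-low in blue, 2 UMIs in grey and Osr1-high in red. Right: total UMIs per cell without Osr1 (log axis), each point a cell and the line the median. The medians of 5343 and 5693 lie close together within ranges that overlap almost fully.

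For each other gene, the counts were summed over the cells of a class and given as CPM. Both classes come from 1 library, and cells are not replicates of a condition. So no test was made, and the ratios below carry exact 95% intervals that cover counting error only. Among 3648 genes with at least 100 counts over both classes, 44 genes (1.21%) were 1.5-fold or more higher in Osr1-high cells and 68 genes (1.86%) were 1.5-fold or more higher in Osr1-low cells. The median log2 ratio of all 3648 genes was -0.01. In the depth-matched cells each of the 44 and 68 genes kept its direction, and 37 and 56 of them stayed past 1.5-fold.

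**Figure D2:**
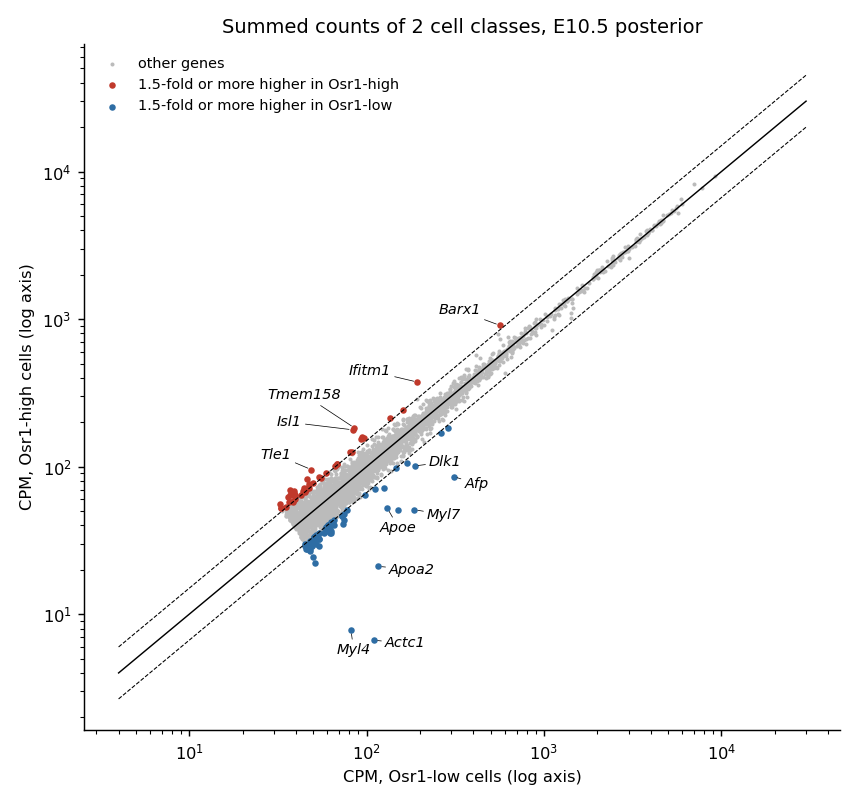
Level of each of the 3648 genes in Osr1-low cells (x axis, CPM, log) and in Osr1-high cells (y axis, CPM, log). The solid line marks equal levels and the dashed lines 1.5-fold. Most genes lie between the dashed lines, Isl1, Tmem158, Ifitm1 and Barx1 lie above them, and Actc1, Myl4, Apoa2, Myl7 and Afp lie below them.

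Transcription factors of the second heart field and foregut mesenchyme were among the genes higher in Osr1-high cells. Isl1, the LIM-homeodomain factor that marks second heart field progenitors (chromosome 13, 116298281 to 116309689), had 160 counts in Osr1-high and 137 in Osr1-low cells. These are 178 and 83.5 CPM, a ratio of 2.13 (95% interval 1.68 to 2.70), and the depth-matched cells gave 2.04 (1.53 to 2.72). Barx1, the homeobox factor of stomach mesenchyme (chromosome 13, 48662998 to 48666507), had 817 and 924 counts, or 908 and 563 CPM. Its ratio was 1.61 (1.47 to 1.77), and 1.58 (1.41 to 1.78) in depth-matched cells. Barx1 was the most abundant of the 15 genes named by the ranking for Osr1-high cells. Neither gene rested on a few cells, since the highest Osr1-high cell held 8 of the 160 Isl1 counts and 34 of the 817 Barx1 counts.

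Other nuclear regulators on the same side were Tle1, a Groucho-type co-repressor, Tcf12, an E-protein, and Tox3, an HMG-box protein. Tle1 stood at 95.5 and 48.7 CPM, a ratio of 1.96. Tcf12 stood at 214 and 136 CPM, a ratio of 1.58. Tox3 stood at 82.2 and 46.3 CPM, a ratio of 1.78, and is the 1 gene of these 15 whose ratio lay below 1 in a depth subset (0.922 in cells with total UMIs up to the median). Cxxc4, a Dishevelled-binding inhibitor of Wnt signalling, had a ratio of 1.88.

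Among signalling receptors, Ptch1, the Hedgehog receptor and a transcriptional target of the pathway (chromosome 13, 63508328 to 63573598), had 139 counts in Osr1-high and 153 in Osr1-low cells. These are 154 and 93.2 CPM, a ratio of 1.66 (1.31 to 2.10), with 1.89 in depth-matched cells. The ratio was larger in deeper cells. Among cells with total UMIs above the median of 5386.5 the Ptch1 ratio was 2.38, and among the remaining cells it was 1.05. Pdgfra, the receptor tyrosine kinase for PDGF-A of mesenchymal progenitors, stood at 104 and 68.2 CPM (1.53, 1.15 to 2.03).

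Membrane and matrix genes made up much of the rest. Tmem158, a membrane protein described as induced by Ras (chromosome 9, 123259053 to 123260764), had 165 counts in Osr1-high and 140 in Osr1-low cells. These are 183 and 85.3 CPM, a ratio of 2.15 (1.71 to 2.71), and the depth-matched ratio was 2.58. Ifitm1, an interferon-inducible membrane protein also found in early mesoderm (chromosome 7, 140967221 to 140969825), stood at 374 and 193 CPM, a ratio of 1.94 (1.66 to 2.27). Tmem158 and Isl1 were the 2 genes that passed 2-fold on this side.

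Cdh11, a cadherin of mesenchyme, stood at 156 and 96.9 CPM (ratio 1.61). Vcan, the proteoglycan versican of cardiac jelly and cushions, stood at 243 and 161 CPM (ratio 1.51). Ezr, the cytoskeletal linker ezrin, stood at 158 and 94.4 CPM (ratio 1.67). The deubiquitinase gene Usp9x (1.77), the phosphatase gene Ptpn13 (1.73) and Commd3 (1.57) completed the 15 genes.

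Along the Osr1 count, the level of these genes can be followed through the cells with 2 UMIs, which the classes leave out. The genes named by rank, in either direction, were chosen by their ratio between cells with 3 or more Osr1 UMIs and cells with 1. A difference between those counts is thus set by the choice, and the level at 2 UMIs alone had no part in it. In cells with 1, 2, 3, 4 and 5 or more Osr1 UMIs, Tmem158 stood at 85.3, 94.9, 162, 194 and 216 CPM. Ifitm1 stood at 193, 298, 348, 412 and 393 CPM. Barx1 stood at 563, 820, 787, 999.6 and 1069 CPM. Tmem158 was higher at each further Osr1 UMI, while Ifitm1 and Barx1 each had 1 small step down within their counting intervals. The Tmem158 intervals at 1 UMI (71.7 to 101 CPM) and 2 UMIs (75.9 to 117 CPM) overlapped.

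Isl1 stood at 83.5, 142, 110, 246 and 252 CPM over the same 5 counts. Ptch1 stood at 93.2, 120, 112, 218 and 181 CPM. For both, cells with 4 or more Osr1 UMIs held the highest levels, and the counting intervals of cells with 2 and 3 UMIs overlapped.

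**Figure D3:**
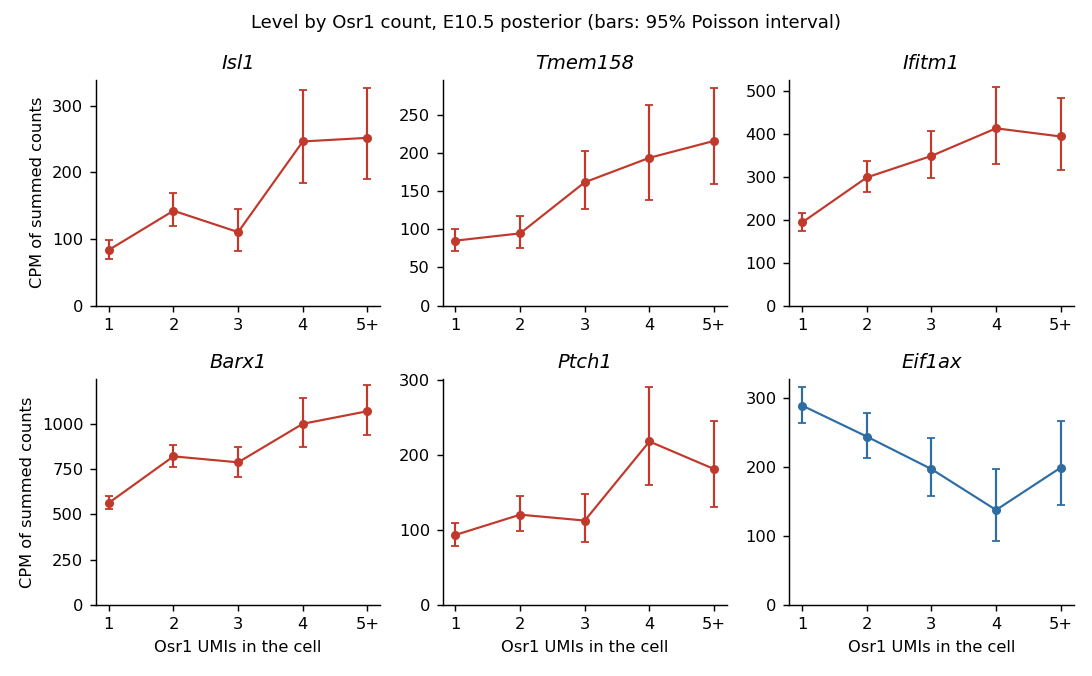
CPM of summed counts (y axis) in E10.5 posterior cells with 1, 2, 3, 4 and 5 or more Osr1 UMIs (x axis). Points are sums over cells and bars are 95% Poisson intervals. Isl1, Tmem158, Ifitm1, Barx1 and Ptch1 are lowest in cells with 1 Osr1 UMI, and Eif1ax is highest there. All were chosen by their ratio between cells with 3 or more Osr1 UMIs and cells with 1, so that contrast is set by the choice.

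The genes higher in Osr1-low cells were led by sarcomere and liver transcripts. Actc1, cardiac alpha-actin, had 6 counts in Osr1-high and 181 in Osr1-low cells, a level 16.5-fold higher in Osr1-low cells (7.45 to 45.7). Myl4, an atrial myosin light chain, had 7 and 134 counts, and Myl7, another atrial light chain, had 46 and 305. Afp, alpha-fetoprotein, had 77 and 508 counts, or 85.5 and 309 CPM. Apoa2, an apolipoprotein of liver, had 19 and 191 counts.

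These differences lay in very few cells. A single Osr1-low cell held 248 of the 305 Myl7 counts, 166 of the 181 Actc1 counts and 98 of the 134 Myl4 counts of its class. For Afp the 3 highest Osr1-low cells held 180, 101 and 63 of the 508 counts. For Apoa2 the 3 highest held 47, 43 and 41 of the 191 counts.

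Cells with 10 or more UMIs over 8 sarcomere genes numbered 3 in the Osr1-low class and 1 in the Osr1-high class. Those with 10 or more UMIs over 7 liver serum protein genes numbered 7 and 4. With these cells left out, a choice made after seeing the data, the high-over-low ratio was 1.87 for Actc1, 1.45 for Myl7 and 1.03 for Rbp4, so these 3 genes changed sides. It was 0.668 for Myl4, 0.873 for Apoa2 and 0.794 for Afp. The ratios of Isl1 (2.11) and Barx1 (1.57) moved little.

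**Figure D4:**
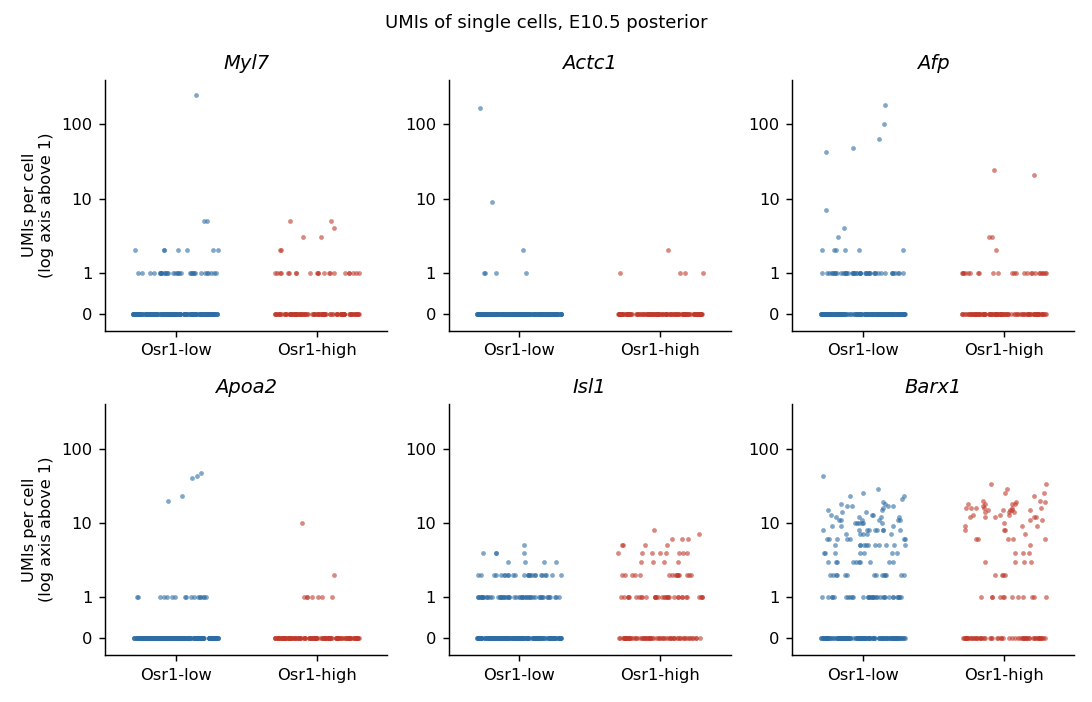
UMIs per cell (y axis, log above 1) in Osr1-low (blue, 273 cells) and Osr1-high (red, 135 cells) cells. The highest Osr1-low cell holds 248 Myl7 and 166 Actc1 UMIs and a few hold most of Afp and Apoa2, while Isl1 and Barx1 are spread over many cells of both classes.

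Several genes on the Osr1-low side were spread over many cells. Eif1ax, a translation initiation factor encoded on the X chromosome, had 165 counts in Osr1-high and 474 in Osr1-low cells. These are 183 and 289 CPM, 1.58-fold higher in Osr1-low cells (1.32 to 1.89), and its highest Osr1-low cell held 8 counts. Over the 5 Osr1 counts it stood at 289, 244, 197, 137 and 199 CPM. Xist, the X-inactivation RNA, stood at 874 CPM in Osr1-high and 784 CPM in Osr1-low cells.

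Lamtor5, a subunit of the Ragulator complex of lysosomes, was 1.74-fold higher in Osr1-low cells (1.31 to 2.33), and Aes, a short Groucho-family protein, 1.60-fold (1.26 to 2.04). Leprotl1 was 2.04-fold higher (1.26 to 3.44). Lamtor5 stood at 126, 93.8, 77.8, 61.6 and 70.7 CPM over the 5 Osr1 counts. So Lamtor5, like Eif1ax, was lowest in cells with 4 Osr1 UMIs.

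Dlk1, a paternally expressed Notch-family ligand of progenitors (chromosome 12, 109452823 to 109463336), had 91 counts in Osr1-high and 306 in Osr1-low cells. These are 101 and 186 CPM, 1.84-fold higher in Osr1-low cells (1.45 to 2.36). The high-over-low ratio was 0.312 in depth-matched cells and 0.571 without the sarcomere and liver cells, on the same side in both. Cluster 1, described below, which is led by Afp and other liver genes, held 204 of the 306 Osr1-low and 53 of the 91 Osr1-high Dlk1 counts, with a ratio of 0.712 (0.516 to 0.967) inside it. In cluster 2 the Dlk1 ratio was 0.960 (0.389 to 2.45) on 13 and 10 counts. It was 0.533 (0.164 to 1.54) in cluster 3, 0.631 (0.272 to 1.34) in cluster 4 and 0.326 (0.0834 to 0.925) in cluster 5. Above 1 were cluster 0 (1.47, 0.364 to 4.37) and cluster 6 (1.24, 0.0235 to 15.4). All of these rest on few counts. The part of liver-type cells in the Dlk1 difference was not tested beyond these values. Crip1, a LIM-domain protein, had 20 and 84 counts, of which 18 lay in 1 Osr1-low cell. Apoe, the apolipoprotein E gene, had 47 and 215 counts, and 99 of its Osr1-low counts remained without the sarcomere and liver cells.

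Hba-a1, an alpha-globin gene, had 153 and 432 counts, and 1 Osr1-low cell held 74 of them. Over 7 haemoglobin genes the summed level was 1865 CPM in Osr1-high and 2600.2 CPM in Osr1-low cells, a ratio of 0.717 (0.678 to 0.759). The other erythroid markers summed to 10.0 and 15.8 CPM. What the globin counts stem from was not tested.

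Gene lists were then read against the background of 1.21% and 1.86%. From the list for venous-pole and posterior second heart field genes, 9 of 22 genes passed the minimum of 100 counts. Of these, 2 were past 1.5-fold in Osr1-high cells, Isl1 and Pdgfra, and none in Osr1-low cells. The median log2 ratio was 0.24, and the summed level of all 22 genes was 1509.8 and 1243 CPM (1.21, 1.13 to 1.30). Isl1, already named for its ratio, held 160 of the 1359 Osr1-high and 137 of the 2041 Osr1-low counts of this sum.

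Foxf1, the forkhead factor of splanchnic mesoderm, stood at 266 and 209 CPM (1.27, 1.07 to 1.5). The nuclear receptor genes Nr2f1 (1.18, 0.959 to 1.44) and Nr2f2 (1.06, 0.900 to 1.24) had intervals that include 1. Of 17 retinoic acid pathway genes 5 were measured, and Rbp4 was past 1.5-fold on the Osr1-low side. Aldh1a2, which makes retinoic acid, stood at 99.99 and 80.4 CPM (1.24, 0.940 to 1.64).

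From the anterior and pharyngeal list 4 of 18 genes were measured. Tcf21, a bHLH factor of pharyngeal and epicardial mesoderm, stood at 76.7 and 47.5 CPM (1.61, 1.15 to 2.26), while Dlk1 was past 1.5-fold on the other side. Msc had a ratio of 1.28 (0.936 to 1.74) and Crabp1 a ratio of 0.772 (0.497 to 1.17). The median log2 ratio was -0.01, and -0.35 in depth-matched cells. The summed level of the 18 genes was 379.95 and 455 CPM, lower in Osr1-high cells (0.835, 0.732 to 0.95). Dlk1 alone held 91 of the 342 Osr1-high and 306 of the 747 Osr1-low counts of this sum. The sum was not computed without Dlk1 and does not stand for the other genes of the list.

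From the lung and foregut mesenchyme list 4 of 16 genes were measured, and Barx1 was the 1 past 1.5-fold. The Wnt antagonists of this list differed in direction, with Sfrp2 at 104 and 74.9 CPM (1.39, 1.05 to 1.84) and Sfrp1 at 134 and 172 CPM (0.782, 0.627 to 0.972).

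Of 17 Hedgehog pathway and target genes 4 were measured. Ptch1 was the 1 past 1.5-fold. The target Foxf1 was described above, the signal transducer gene Smo had a ratio of 1.03 (0.757 to 1.39) and the co-receptor gene Gas1 a ratio of 0.826 (0.616 to 1.10). The summed level of the 17 genes was 749 and 637 CPM (1.18, 1.07 to 1.30). Ptch1, named for its ratio in these same cells, held 139 of the 674 Osr1-high and 153 of the 1045 Osr1-low counts of this sum. Foxf1, with the most counts, is also in the posterior list. The sum was not computed without these genes and is not separate evidence on the pathway. Hhip, a Hedgehog-binding target gene below the count minimum and named after its values were seen, had 41 and 44 counts (1.70, 1.08 to 2.66). Gli1, another target, had 14 and 17 counts (1.5, 0.685 to 3.24), too few to tell from equal levels.

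In the Wnt list of 26 genes 7 were measured. Wnt4, a secreted ligand, stood at 104 and 68.2 CPM (1.53, 1.15 to 2.03), and the R-spondin gene Rspo1 at 126 and 89.6 CPM (1.40, 1.09 to 1.8). Rspo3 was past 1.5-fold on the other side, at 31.1 and 48.7 CPM. Rspo2, below the minimum and named after its values were seen, had 27 and 17 counts (2.90, 1.52 to 5.66). Shox2, a homeobox factor of the sinus venosus and likewise below the minimum, had 29 and 12 counts (4.41, 2.18 to 9.48).

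Of 20 BMP pathway genes 6 were measured and none passed 1.5-fold. The BMP-responsive genes Id1 (0.838), Id2 (0.837) and Id3 (0.851) were all lower in Osr1-high cells by a like amount, with intervals of Id2 and Id3 below 1. The list's median log2 ratio was -0.23, and its summed level was 1335 and 1529 CPM (0.873, 0.815 to 0.936).

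Of 23 Hox genes of groups 1 to 8, which mark position along the body axis, 5 were measured and none passed 1.5-fold. Hoxb4 stood at 80.0 and 108 CPM (0.742, 0.556 to 0.981), and Hoxa5 at 140.0 and 154 CPM (0.912, 0.730 to 1.13). The summed level was 569.9 and 709 CPM (0.804, 0.723 to 0.892). The sum stood at 709, 739, 620.3, 578 and 459 CPM over the 5 Osr1 counts, lowest in cells with 5 or more. Its ratio was 1.01 (0.951 to 1.08) in E9.5 posterior and 0.866 (0.713 to 1.05) in E10.5 middle cells, and both intervals include 1. Cluster 0, described below and led by Hoxa7, Fgf9 and Hoxb8, held 8 Osr1-high and 59 Osr1-low cells. Its part in the Hox sum was not tested.

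Among ligands and receptors of cell guidance, Epha4 (0.657) and its ligand gene Efnb2 (0.614) were past 1.5-fold on the Osr1-low side. In the Notch list, the target gene Hes1 had a ratio of 0.684 (0.468 to 0.983) beside Dlk1. Of 15 measured mesenchymal regulators and cadherins Cdh11 alone passed 1.5-fold. The forkhead gene Foxp1 had a ratio of 1.18 (1.03 to 1.37), the homeobox cofactor gene Meis2 1.21 (1.04 to 1.41) and Vim, vimentin, 0.985 (0.879 to 1.10).

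Of 12 measured matrix genes Vcan was past 1.5-fold in Osr1-high cells and the basement membrane collagen gene Col4a1 (0.663) in Osr1-low cells. Of 18 measured imprinted and IGF genes Dlk1 was the 1 past 1.5-fold. Ndn, encoding necdin and named after its value was seen, lay just under the fold at 288 and 193 CPM (1.49, 1.26 to 1.77).

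Genes of mitosis were higher in Osr1-high cells by small amounts in the same direction. All 20 genes of the G2 and M phase list were measured, none passed 1.5-fold and 20 of 20 had a ratio above 1, with a median log2 ratio of 0.29 (0.33 in depth-matched cells) beside -0.01 for all genes. By the rule the 4 with most counts are named. Ube2c, which acts in mitotic exit, stood at 791 and 549 CPM (1.44, 1.30 to 1.59), and Cenpf, a kinetochore protein, at 569 and 414 CPM (1.37, 1.22 to 1.54). Top2a, the topoisomerase of dividing cells, stood at 664 and 584 CPM (1.14, 1.02 to 1.26), and Hmgb2, a chromatin protein, at 1350 and 1282 CPM (1.05, 0.980 to 1.13). The ratios ran from 1.03 for Birc5 (0.900 to 1.18) to 1.47 for Nusap1 (1.19 to 1.82), and those near the lower end had intervals that include 1.

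The summed level of the 20 mitotic genes was 6638 CPM in Osr1-high and 5545 CPM in Osr1-low cells (1.2, 1.16 to 1.24). Scaled to the same depth per cell (mitotic UMIs per 10000 UMIs), the median was 66.2 (quartiles 30.8 and 102) in Osr1-high cells and 49.8 (27.7 and 79.0) in Osr1-low cells, so the classes overlapped widely. Over the 5 Osr1 counts the sum stood at 5545, 5902, 6097, 7376 and 7055 CPM. Total UMIs per cell stand beside this, with medians of 5594, 5719 and 6271 in cells with 3, 4 and 5 or more Osr1 UMIs, and their part in the difference was not tested beyond the matching.

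Genes of S phase lay closer to equal levels. Of 17 measured, none passed 1.5-fold and 4 had a ratio above 1, with a median log2 ratio of -0.12 and of 0.02 in depth-matched cells. Ccnd1, a G1 cyclin, stood at 131 and 181 CPM (0.725, 0.580 to 0.900), while Ccnd2 stood at 704 and 635 CPM (1.11). The 80 measured ribosomal protein genes (median log2 0.00) and the 13 mitochondrially encoded genes (0.01) lay at the median of all genes.

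Markers of other cell types were read as whole lists. The defining markers of cardiomyocytes summed to 114 CPM in Osr1-high and 442 CPM in Osr1-low cells, and those of hepatoblasts to 184 and 638 CPM. Epithelial markers summed to 482 and 564 CPM, endothelial markers to 51.1 and 98.7 CPM, smooth muscle markers to 32.2 and 70.7 CPM and neural crest markers to 20 and 55.4 CPM. Leukocyte markers had 0 counts in Osr1-high cells, which allows up to 3, and 17 in Osr1-low cells. Mesothelial or epicardial markers summed to 110.0 and 95.6 CPM and cushion mesenchyme markers to 489 and 368 CPM. Tcf21, past 1.5-fold, was the 1 measured mesothelial or epicardial marker. Vcan (243 and 161 CPM) and Cdh11 (156 and 96.9 CPM), named above, held most of the cushion sums. Twist1, the other measured cushion marker, did not have a ratio above 1. Lists of other types were thus mostly lower in Osr1-high cells. For cardiomyocytes and hepatoblasts the gap is not spread over the class. In the Osr1-low class, 3 cells held 714 of the 839 sarcomere UMIs and 7 cells held 1092 of the 1248 liver UMIs counted above. How the other marker lists were spread over cells is not given here. The part of cell makeup in the gene ratios was followed through clusters.

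Clusters were made from all 560 posterior cells with Osr1, globin and mitochondrially encoded genes left out. Cluster 2, led by Pdlim3, Isl1 and Barx1, held 46 Osr1-high and 39 Osr1-low cells. Cluster 3, led by Myl4, Myl7 and Rspo2, held 28 and 33, and cluster 4, led by Wnt4, Cxcl13 and Nkx6-1, held 32 and 58. Cluster 0, led by Hoxa7, Fgf9 and Hoxb8, held 8 and 59, and cluster 1, led by Afp, held 13 and 49. The clusters are rebuilt from these counts, and their leading genes overlap with the genes compared here, so cell numbers are given only as n. By the fixed markers cluster 1 would be called hepatoblast-like and cluster 3 cardiomyocyte-like, but most liver and sarcomere counts lay in the few cells described above. Clusters 5 (7 and 28 cells) and 6 (1 and 7 cells) were epithelium-like and neural crest-like.

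Within cluster 2, Isl1 stood at 406 CPM in Osr1-high and 241 CPM in Osr1-low cells (1.68, 1.2 to 2.38). Barx1 stood at 2043 and 1331 CPM (1.54, 1.33 to 1.78), and Ifitm1 had a ratio of 1.48 (1.19 to 1.86). Ptch1 (1.08, 0.723 to 1.63) and Tmem158 (1.11, 0.783 to 1.60) lay near 1 there. Cluster 2 is itself led by genes compared here, and the other clusters gave other values. Tmem158 had ratios of 1.86 (0.987 to 3.54) in cluster 4 and 3.00 (1.59 to 5.70) in cluster 1, and Ptch1 had 1.42 (0.800 to 2.50) and 3.46 (1.82 to 6.68). Below 1 were Ptch1 in cluster 3 (0.609, 0.273 to 1.30) and in cluster 0 (0.945, 0.242 to 2.67). Ifitm1 had 0.502 (0.187 to 1.23) in cluster 3 and 0.666 (0.279 to 1.37) in cluster 0. It had 1.28 (0.608 to 2.62) in cluster 4 and 3.32 (2.11 to 5.24) in cluster 1. Isl1 had ratios of 0.851 (0.188 to 3.18) in cluster 4 and 0.594 (0.117 to 1.88) in cluster 0, on few counts.

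Cluster 0 held 490 of the 924 Osr1-low counts of Barx1, and its ratio there was 0.867 (0.649 to 1.14), from 1238 CPM in 8 Osr1-high and 1428 CPM in 59 Osr1-low cells. In cluster 1, with 13 Osr1-high cells, the Barx1 ratio was 3.53 (2.70 to 4.64). In clusters 3 (0.381, 0.107 to 1.12) and 4 (0.986, 0.424 to 2.18) Barx1 had few counts. The Barx1 ratio thus lay above 1 in some clusters and not in others. Tcf12 was above 1 in clusters 2, 3 and 4, with 2.01 (1.21 to 3.40) in cluster 3. Eif1ax was below 1 in all 3 of them, from 0.584 to 0.733.

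With Osr1-low cells weighted to the cluster makeup of the Osr1-high cells, Barx1 had a ratio of 1.59, Isl1 1.59, Ifitm1 1.47, Tmem158 1.39 and Ptch1 1.26. Tmem158 and Isl1, the genes past 2-fold without weighting, thus had ratios under 2 with it. Usp9x (1.77) and Ezr (1.83) did not come down.

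The same classes were formed in libraries that had no part in choosing the genes. E10.5 middle cells gave 43 Osr1-high and 218 Osr1-low cells, with median UMIs of 5663 and 5275. E9.5 posterior cells gave 261 and 108, with medians of 32367 and 29579. The E9.5 cells were several times deeper, so the same Osr1 counts stand for lower shares there, 229 CPM of Osr1 in the high and 33.7 CPM in the low class.

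Of the 15 genes named as higher in Osr1-high cells, 12 had a ratio above 1 in E9.5 posterior cells, beside 55.0% of all genes. For 8 of the 15 the counting interval lay above 1, beside 18.6% of all genes. Ptch1 stood at 136 and 56.2 CPM there (2.42, 2.07 to 2.85), Tmem158 had a ratio of 2.10 (1.69 to 2.63), Isl1 1.89 (1.60 to 2.25), Tle1 1.75 and Ifitm1 1.70. Barx1, at 85.4 and 74.7 CPM, had a ratio of 1.14 (0.989 to 1.33). Foxf1 (1.98, 1.77 to 2.20) and Hhip (4.26, 2.42 to 8.18) were also above 1. Rspo2 had 82 counts in the high and 1 in the low class (28.9, 5.05 to 1157), while Shox2 lay below 1 on 20 and 30 counts (0.235, 0.127 to 0.428).

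In E10.5 middle cells, 9 of the 15 genes had a ratio above 1, beside 48.7% of all genes, and the interval lay above 1 for Commd3 alone. Isl1 stood at 68.4 and 75.6 CPM there (0.906, 0.537 to 1.46) and Barx1 at 19.6 and 18.3 CPM (1.07, 0.357 to 2.68). Tmem158 had a ratio of 1.48 (0.814 to 2.57) and Ptch1 of 1.40 (0.787 to 2.38), intervals that hold both 1 and the posterior values of Ptch1 and Tmem158. For Isl1, Tle1 (0.922, 0.530 to 1.53), Cdh11 (0.833, 0.552 to 1.22) and Usp9x (0.743, 0.366 to 1.38) the upper bound in middle cells lay under the E10.5 posterior ratio. For the other genes of the 15 the middle interval included it. The posterior ratios carry counting error too. The posterior intervals of Tle1 (1.43 to 2.69) and Usp9x (1.23 to 2.55) overlapped their middle intervals, while those of Isl1 and Cdh11 did not.

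On the Osr1-low side, Dlk1 was below 1 in all 3 libraries, with ratios of 0.542 in E10.5 posterior, 0.356 (0.126 to 0.813) in E10.5 middle and 0.352 (0.332 to 0.373) in E9.5 posterior cells. Crip1 was below 1 as well, at 0.399 (0.359 to 0.443) in E9.5 posterior and 0.758 (0.360 to 1.45) in E10.5 middle cells. Eif1ax had ratios of 1.00 (0.932 to 1.08) at E9.5 and 1.04 (0.833 to 1.30) in the middle library, and both intervals include 1. Lamtor5 (1.04 and 0.959) and Leprotl1 (0.978 and 1.01) likewise had ratios near 1 in the other libraries.

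Sarcomere genes were lower in Osr1-high cells at E9.5 on far higher levels. Myl7 stood at 623 CPM in Osr1-high and 1932 CPM in Osr1-low E9.5 posterior cells (0.322, 0.311 to 0.334), and Actc1 at 494 and 1207 CPM (0.409, 0.392 to 0.427). How many cells carried those counts was not analysed here. In E10.5 middle cells the 8 sarcomere genes had a summed ratio of 1.32 (0.871 to 1.95). Actc1 had 1.16 (0.659 to 1.95) there, and Myl7 had 0.569 (0.0632 to 2.45) on 2 and 15 counts, so all 3 intervals include 1. The mitotic list had a summed ratio of 0.974 (0.958 to 0.992) at E9.5 and of 1.13 (1.08 to 1.18) in E10.5 middle cells.

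**Figure D5:**
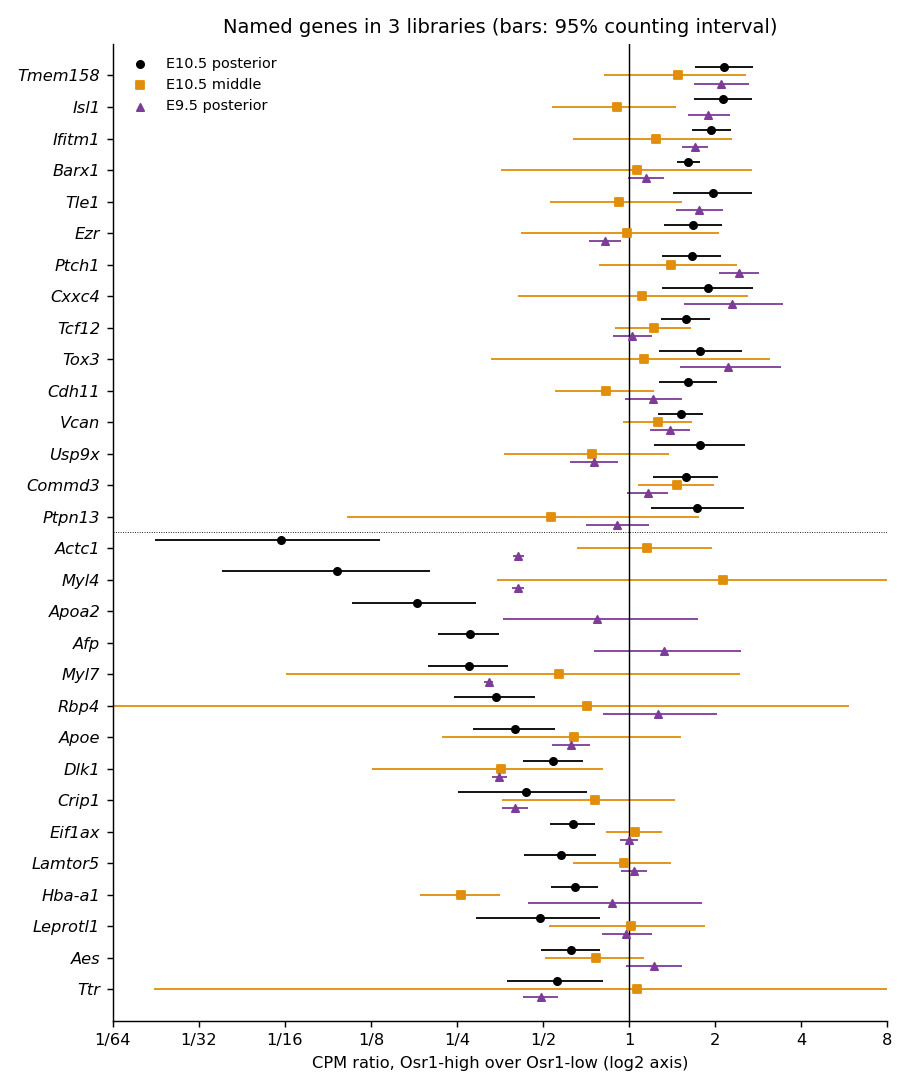
CPM ratio of Osr1-high over Osr1-low cells (x axis, log2) for the 15 genes named as higher in Osr1-high (above the dotted line) and the 15 higher in Osr1-low cells (below it), in E10.5 posterior (black), E10.5 middle (orange) and E9.5 posterior (purple) cells. Bars are 95% counting intervals, clipped at the axis limits, and Apoa2 and Afp have no E10.5 middle point because no counts were seen in the Osr1-high class there. Isl1, Tmem158 and Ptch1 lie above 1 and Dlk1 below 1 in both posterior libraries.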

How the data were processed

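Trypsin-dissociated cells of the dissected tissue were run on a 10x Chromium instrument with Illumina NextSeq sequencing, per the labels' protocols. The submitters' processing notes list Cell Ranger 3.0, Seurat and the mm10 build. Each deposited matrix holds unnormalized UMI counts, with 17348 genes at E10.5. How cells were chosen as Osr1+ and the annotation version are not given in the sources used here. Coordinates are from GENCODE vM21 on mm10.

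Counts were summed per class without Osr1 and scaled to a class total of 1000000 (CPM). Ratios carry exact conditional Poisson intervals (Clopper-Pearson, 95%; scipy 1.17.1, numpy 2.4.6, pandas 2.3.3). At 100 to 120 counts the upper bound was typically 1.50 times the ratio, and at 1000 or more counts 1.10 times. Genes needed 100 counts over both classes. Named genes were the 15 per direction past 1.5-fold, ranked by the interval bound nearest 1, with the same direction in depth-matched cells (at most 0.02 apart in log10 UMIs). From the lists, members past 1.5-fold and up to 4 with most counts were named. Members and lists were chosen with earlier results of these data known.

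Clusters came from scanpy 1.11.5 (Leiden, resolution 0.6, 15 neighbours, 20 components, 2000 variable genes). Scrublet marked 2 Osr1-high and 3 Osr1-low cells as doublets. They stayed in, except under an alternative. TMM factors came from edgeR 4.0.16, which made no test. The ratio code was tested on simulated data. Alternatives changed the matching, depth, Osr1 threshold, weighting, scaling, cells, count minimum, fold and pseudocount. Leaving out cells rich in sarcomere or liver transcripts, and leaving out the cell with a shared barcode, were chosen after seeing the data.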

Additional observations from a re-analysis of the deposited data

Results flagged for a closer look

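Ezr and Usp9x lay on opposite sides of 1 in the posterior libraries of the 2 stages. Ezr, encoding the membrane linker ezrin, had an Osr1-high over Osr1-low ratio of 1.67 in E10.5 posterior cells and of 0.826 (0.727 to 0.940) in E9.5 posterior cells. Usp9x, encoding a deubiquitinase, had ratios of 1.77 and 0.752 (0.622 to 0.912). With 1 sample per stage the difference between the stages was not tested.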

How the results depend on the processing

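No paired analysis was possible because there is 1 sample per stage and both classes come from the same library. The 44 and 68 genes past the fold became 21 and 32 without cells in clusters named after another cell type, 19 and 34 in the shallower cells (total UMIs up to the median), 213 and 254 with a minimum of 50 counts, 1961 and 1673 with 1 count in each class, 2 and 9 at 2-fold, and 29 and 44 with 5 CPM added. The Osr1-low count was also 34 in depth-matched cells, where the minimum of 100 counts was applied anew and left 2501 genes (56 of the original 68 genes were past the fold there at any count), and 105 for 4 or more Osr1 UMIs against 1. Settings that changed the cells or the count minimum also changed how many genes were measured, since the minimum was applied anew. Their counts are thus not shares of the same genes, and only the 2-fold and 5 CPM counts are. Changed scaling moved none of the 30 named genes to the other side.

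The ratio crossed 1 in the shallower cells for Tox3 (0.922), Actc1 (7.11), Apoa2 (3.69), Afp (2.59), Myl7 (1.35), Rbp4 (1.58), Apoe (1.28) and Ttr (2.03). It crossed 1 without the named clusters for Actc1 (1.12), Myl7 (1.41) and Rbp4 (1.87). It did so without cells rich in sarcomere or liver transcripts for Actc1 (1.87), Myl7 (1.45) and Rbp4 (1.03), with intervals that include 1. With classes set on cells thinned to 4000 UMIs (67 and 272 cells) it crossed for Apoa2 (1.23), Myl7 (2.66) and Hba-a1 (1.04). The sarcomere list's median log2 ratio of -1.86 turned to 0.31, 0.16 and 0.32 in the first 3 of these settings. Actc1 had 6 counts in all Osr1-high cells, so its crossings rest on few counts. Among the shallower Osr1-high cells, 1 cell with 4928 UMIs held 24 Afp and 10 Apoa2 UMIs. The ratios in shallower cells are given without intervals. The few cells holding the sarcomere and liver counts are in the report, and the cause of the other crossings was not tested. Depth limits the genes near 100 counts most, and Gli1, Hhip, Rspo2 and Shox2 lie under that minimum.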
